A study of Mus musculus with 9 samples.

Results

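Homologous recombination and the Fanconi pathway were described by 46 genes in 9 arrays of mouse T-cell lymphomas, and 44 of the 46 had a probe set annotated to that gene alone, out of 18194 such genes on the array. Rbbp8 and Xrcc2 were not analysed here. Each gene was read by its probe set with the highest mean signal over all arrays, and the genes were listed by their known roles, not by their values. All 44 passed the filter on low mean signal. The tumours were of genotype G3 Atm-/-TERT-ER and grew in SCID recipients, which lack mature B and T cells but keep other host cells. Of the 9 arrays 3 were telomerase-positive tumours from recipients on 4-OHT at passage 4, 5 were tumours with alternative lengthening of telomeres (ALT) from recipients on vehicle at passage 4, and 1 was a telomerase-positive parental tumour for which no passage or drug was named. All of them lacked Atm, the kinase that signals DNA breaks, and carried TERT-ER, in which an oestrogen receptor domain joined to the catalytic subunit of telomerase makes it depend on 4-hydroxytamoxifen (4-OHT). Drug, telomerase and ALT changed together, so they cannot be told apart. The labels do not say if replicate tumours had separate animals of origin, so the p-values refer to the spread of these arrays alone, which may be technical. With whole tumours fewer cells of a type and less RNA per cell cannot be told apart.

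Homologous recombination copies lost sequence from an intact strand. The Mre11-Rad50-Nbn complex and Exo1 trim the broken end, replication protein A (Rpa1 to Rpa3) coats the bared strand, the BRCA proteins and their partners prepare that strand for pairing with the intact copy, and helicases, topoisomerase and nucleases take the joined molecules apart. The Fanconi core complex attaches ubiquitin to Fancd2 and Fanci at DNA crosslinks. ALT lengthens telomeres by such copying from other telomeres, and the Smc5/6 complex, the Blm helicase and the polymerase subunit Pold3 are among the factors known to take part in it.

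Promoters of 3 of these genes are shown because their signals differed between the groups whichever array was left out. Each sequence is the 250 bases before the annotated transcription start in the RefSeq annotation of GRCm38.p6, read 5′ to 3′ on the gene's own strand, and capitals mark CCAAT on either strand. The stretches are chr9:14784404-14784653 on the plus strand for Mre11a, chr6:8259142-8259391 on the minus strand for Rpa3 and chr8:123318577-123318826 on the minus strand for Fanca.
Mre11a: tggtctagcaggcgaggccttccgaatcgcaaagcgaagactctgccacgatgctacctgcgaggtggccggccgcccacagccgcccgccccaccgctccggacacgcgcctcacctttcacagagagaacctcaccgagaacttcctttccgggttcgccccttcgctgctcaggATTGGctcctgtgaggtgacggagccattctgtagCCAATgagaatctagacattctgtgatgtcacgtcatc
Rpa3: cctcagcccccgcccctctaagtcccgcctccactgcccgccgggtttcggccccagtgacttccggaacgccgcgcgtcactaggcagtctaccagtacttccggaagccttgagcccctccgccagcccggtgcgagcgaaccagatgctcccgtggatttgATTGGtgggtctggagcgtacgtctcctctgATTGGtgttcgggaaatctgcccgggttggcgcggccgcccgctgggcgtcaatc
Fanca: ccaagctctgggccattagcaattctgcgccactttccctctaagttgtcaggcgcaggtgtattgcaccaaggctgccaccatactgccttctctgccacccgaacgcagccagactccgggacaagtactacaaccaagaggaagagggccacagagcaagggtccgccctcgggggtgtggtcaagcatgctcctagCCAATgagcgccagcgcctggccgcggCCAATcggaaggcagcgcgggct
In each of them CCAAT, the letters of the binding motif of the factor NF-Y, occurred at 2 places. They lay 73 and 38 bases before the start of Mre11a, 86 and 55 bases before that of Rpa3, and 50 and 23 bases before that of Fanca. The signals of Mre11a and Fanca were higher in ALT and that of Rpa3 was lower, so the letters were shared by promoters whose signals moved in opposite directions.

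RefSeq promoters, from 250 bases before to 50 bases after a start, were at hand for 35 of the 44 genes. These genes had 41 promoters, as 6 of them had several, and a gene was counted where any of its promoters held the letters. The letters TTTCGCGC, TTTGGCGC, TTTCCCGC and TTTGCCGC, forms of the site of the cell cycle factor E2F, were searched on both strands. At least 1 of them stood in a promoter of 7 of the 35 genes (20%) and of 2.6% of the 27025 genes of the whole table. These 7 were Bard1, Brca2, Rad51c, Rmi1, Fancg, Pold3 and Topbp1. CCAAT stood in a promoter of 22 of the 35 genes (62.9%), against 41.1% of all genes of the table. TTTGAA or TTCGAA, forms of the cell cycle element CHR, stood in that of 6 genes (17.1%), against 21.7%. The match of letters describes the sequence and does not show that a factor binds there.

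The arrays carried the T-cell transcripts the labels imply: 10 of the 12 T-cell markers were matched, and their summed signal was 42122 to 44551 in the telomerase arrays, 33475 to 40964 in the ALT arrays and 45462 in the parental tumour. These sums did not overlap between the groups: the T-cell receptor subunits Cd3e, Cd3d and Cd3g fell in ALT, while Cd2 rose. On the log2 scale the mean of these 10 markers overlapped: 11.26 to 11.41 in the telomerase arrays and 11.09 to 11.41 in ALT. Cd247, Cd5, Thy1, Zap70, Lat and Ptprc did not pass the limma test given below, with log2 changes from −0.041 (Cd5) to 0.20 (Zap70). The part of T-cell content in the results was not tested. Transcripts of the exocrine pancreas were abundant in telomerase 3 and ALT 1, 2 and 5, where 12 acinar markers summed to 86575 to 178940, and scarce in the other 5 arrays, where they summed to 264 to 950. Transcripts of skeletal muscle summed to 12486 in the parental tumour and 8300 in telomerase 1, and to 227 to 569 elsewhere. Myeloid markers summed to 6002 to 8820 in the telomerase arrays and 6212 to 9606 in the ALT arrays, and B-cell markers to 412 to 507 and 443 to 618. Host transcripts therefore divided the arrays within both groups, and the members are given below with the arrays that held acinar transcripts set apart where this ended a call.

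Between ALT and telomerase tumours 5 recombination and Fanconi genes rose, 4 fell and 35 did not pass the test (limma on log2 of signal plus 16, Benjamini-Hochberg adjusted p under 0.05 over 12369 tested genes). Mre11a, Bard1, Fanca, Fancf and Smc5 were the 5 and Rpa3, Rmi1, Fancm and Pold3 the 4. For 2 of the 5, Bard1 and Smc5, the ALT arrays themselves decided that the gene or its higher probe set was tested, as given below for each, so their calls support nothing by themselves. The 9 genes are 20.5% of the 44, beside a background of 17.5% of all tested genes (7.48% higher and 10.1% lower), so the share that passed was near that of any genes. The median log2 change of the 44 was 0.015, against −0.0062 over all tested genes. The median size of the change regardless of direction was 0.22, against 0.21. At the chosen probe sets, with 16 added before the logarithm, no gene of the list changed by 1 or more on the log2 scale, and 37 of the 44 differed by less than 0.5.

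**Figure D1:**
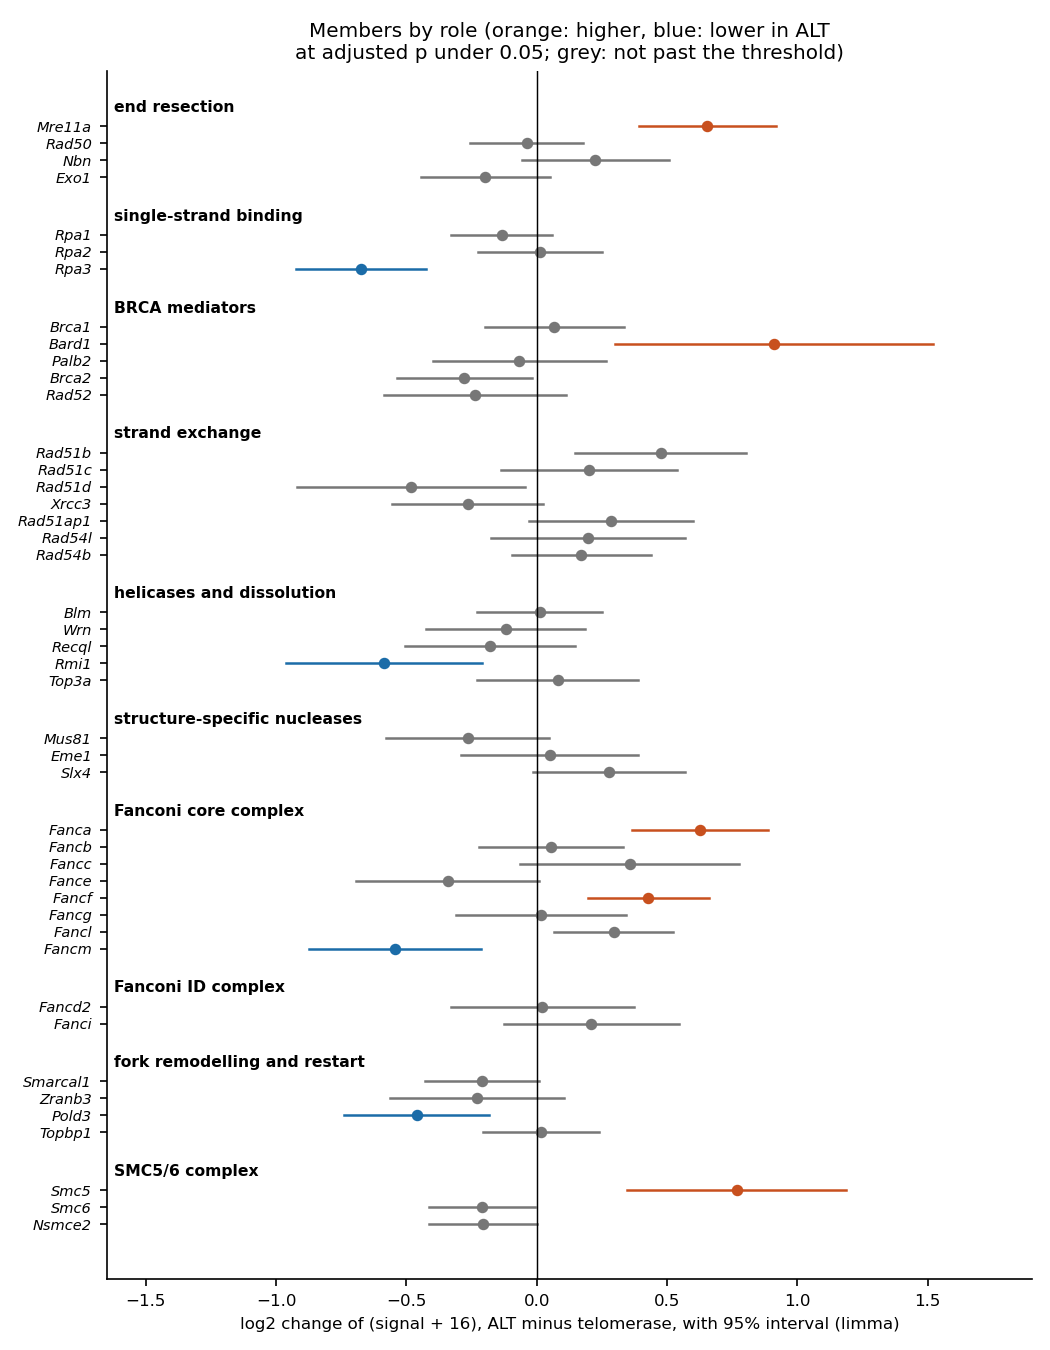
Log2 change of signal plus 16, ALT minus telomerase (x axis), for the 44 genes in order of their role (y axis), with points at the limma estimate and lines for its 95% interval. Orange marks the 5 genes that rose and blue the 4 that fell at an adjusted p under 0.05, and they lie in 7 of the 10 roles, and in no role did most genes pass the test in 1 direction.

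The arrays within a group differed by about as much as many of the changes. The SD was 12.8% of the mean in the median gene over the telomerase arrays and 12.6% over the ALT arrays. The signals of ALT and telomerase arrays did not overlap for 14 genes (31.8%), 7 higher and 7 lower in ALT, beside 24.8% of all tested genes (10.9% higher and 13.9% lower). Telomerase 3, the only telomerase array with acinar transcripts, was the lowest of the 3 telomerase arrays for 36 of the 44 genes (81.8%), whereas it was the lowest for 35.3% of all tested genes. It was the lowest of all 9 arrays for 17 of the 44 (38.6%), against 11.1% of all tested genes. Summed over the 44 genes the signal was 17440 in telomerase 3, 20838 and 20782 in the other telomerase arrays, and 18085 to 20150 in the ALT arrays. Summed over 15 proliferation genes it was 41750 in telomerase 3, 46452 and 48242 in the other telomerase arrays, and 41398 to 49329 in the ALT arrays. None of these 15 passed the limma test between the groups (3 at an unadjusted p under 0.05, beside 3885 of all 12369 tested genes). The part of the acinar transcripts or of proliferation in the low values of telomerase 3 was not tested.

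**Figure D2:**
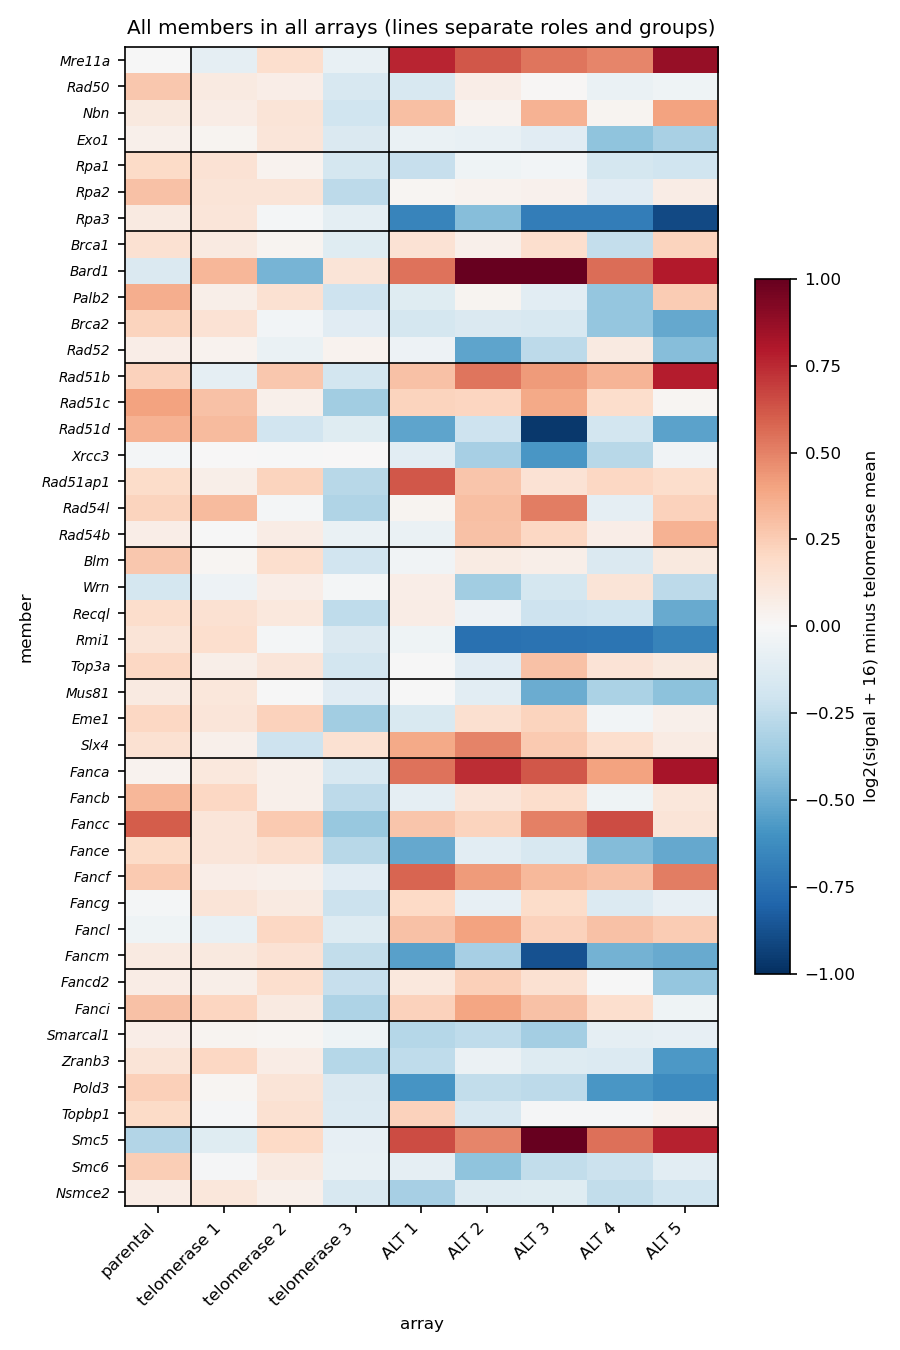
Log2 of signal plus 16 of each of the 44 genes (rows) in each of the 9 arrays (columns), minus the mean of the 3 telomerase arrays, on a colour scale that ends at 1 in either direction. The column of telomerase 3 is paler or bluer than those of telomerase 1 and 2 for most genes (the lowest of the 3 for 36 of 44), and the parental column is redder for many (the highest of all arrays for 14 of 44).

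Among the 4 genes of end resection Mre11a rose and the others did not pass the test. Mre11a, the nuclease of the complex that binds broken ends, had signals of 197, 239 and 200 in the telomerase arrays and 369, 334, 314, 302 and 399 in the ALT arrays. Every ALT array lay above every telomerase array, and the means were 212 ± 23.1 (SD, n = 3) and 344 ± 39.8 (SD, n = 5), a log2 change of 0.65 (SE 0.118, adjusted p = 0.00473). Its partners in the complex did not pass the test: Rad50, the ATPase that bridges ends, differed by −0.039 with a 95% interval from −0.26 to 0.18, and Nbn, the subunit that recruits Atm, by 0.23 with an interval from −0.056 to 0.51. Exo1, the exonuclease of long-range resection, had signals of 805, 862 and 713 in the telomerase arrays and 754, 751, 728, 593 and 627 in the ALT arrays. These ranges overlapped, and the difference of −0.20 did not pass the test (adjusted p = 0.255).

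Of the 3 subunits of replication protein A the smallest, Rpa3, fell. Its signals were 1137, 1027 and 972 in the telomerase arrays and 653, 774, 640, 640 and 551 in the ALT arrays, with no overlap. The means were 1045 ± 83.9 (SD, n = 3) and 652 ± 79.7 (SD, n = 5), a log2 change of −0.67 (SE 0.112, adjusted p = 0.0031). Rpa1, the largest subunit, had signals of 3232, 2998 and 2585 in the telomerase arrays and 2493, 2844, 2875, 2589 and 2543 in the ALT arrays. The groups overlapped and the difference was −0.13 (adjusted p = 0.329). For Rpa2, the subunit that checkpoint kinases phosphorylate, the difference was 0.013 with an interval from −0.23 to 0.25.

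Among the 5 BRCA genes and mediators Bard1 alone passed the test. Bard1, the ring-domain partner of Brca1, had low signals, near the 16 that was added before the logarithm: 20.7, 5.14 and 15.9 in the telomerase arrays and 26.6, 48.9, 66.2, 27.0 and 34.6 in the ALT arrays. The ranges did not overlap, the means were 13.9 ± 7.98 (SD, n = 3) and 40.7 ± 16.9 (SD, n = 5), and the log2 change was 0.91 (SE 0.273, adjusted p = 0.046). The filter on low mean signal lay at 25.3, above the telomerase mean of Bard1 and below its ALT mean, so it was tested only because the ALT arrays were high, and with no filter its adjusted p was 0.051. Whether signals this low are above the array's background is unknown. Brca1 itself, which with Bard1 forms a ubiquitin ligase, differed by 0.068 with an interval from −0.20 to 0.33. Brca2, the large mediator of strand exchange, had signals of 544, 482 and 452 in the telomerase arrays and 432, 442, 437, 372 and 339 in the ALT arrays. The ALT arrays were all lower, but by a margin that did not pass the test (−0.28, adjusted p = 0.132). Palb2, which joins Brca1 to Brca2, and Rad52, an annealing protein, had intervals that included 0.

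None of the 7 genes of strand exchange passed the test, and 2 of them had an unadjusted limma p under 0.05. Over all tested genes 3885 of 12369 had such an unadjusted p. Rad51b, which acts in strand exchange, had signals of 132, 174 and 122 in the telomerase arrays and 177, 211, 195, 183 and 254 in the ALT arrays. The ranges lay apart by a small gap, with a difference of 0.47 (adjusted p = 0.0523). Xrcc3, which works in a complex with Rad51c, had signals of 204, 203 and 204 in the telomerase arrays and 188, 159, 131, 166 and 198 in the ALT arrays, all lower, with a difference of −0.27 (adjusted p = 0.195). Rad51ap1, which stimulates strand pairing, had signals of 984, 1102 and 774 in the telomerase arrays and 1463, 1144, 1042, 1093 and 1066 in the ALT arrays. ALT 1 stood above the rest and the groups overlapped (0.28, adjusted p = 0.199). The others, Rad51c, Rad51d, Rad54l and Rad54b, differed by −0.48 (Rad51d) to 0.20 (Rad51c).

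Among the 5 helicase and dissolution genes Rmi1 fell, and its ALT arrays did not all move. Rmi1, a subunit of the complex of Blm and topoisomerase 3 alpha that dissolves joined molecules, had signals of 807, 708 and 647 in the telomerase arrays and 696, 420, 425, 425 and 447 in the ALT arrays. ALT 1 lay within the telomerase range and the other 4 ALT arrays below it. The means were 720 ± 80.6 (SD, n = 3) and 483 ± 120 (SD, n = 5), a log2 change of −0.58 (SE 0.168, adjusted p = 0.0393). Its partners Blm (0.012) and Top3a (0.080), and the RecQ helicases Wrn (−0.12) and Recql (−0.18), did not pass the test. None of the 3 nuclease genes passed it or had an unadjusted limma p under 0.05. Slx4, the scaffold of these nucleases, had signals of 136, 111 and 147 in the telomerase arrays and 174, 190, 159, 149 and 139 in the ALT arrays, which overlapped (0.28, adjusted p = 0.18). Mus81 differed by −0.26 and its partner Eme1 by 0.049.

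Of the 8 genes of the Fanconi core complex, the role with the most analysed genes, Fanca and Fancf rose and Fancm fell. Single-strand binding and the Smc5/6 complex each had 1 of 3 past the test, and 17.5% of all tested genes passed it. Fanca, a core subunit, had signals of 386, 370 and 318 in the telomerase arrays and 526, 608, 559, 477 and 643 in the ALT arrays. All ALT arrays were above all telomerase arrays, with means of 358 ± 35.6 (SD, n = 3) and 563 ± 65.8 (SD, n = 5) and a log2 change of 0.63 (SE 0.117, adjusted p = 0.00582). Fancf, an adaptor within the core, had signals of 227, 224 and 198 in the telomerase arrays and 332, 296, 274, 268 and 315 in the ALT arrays. These also lay apart, with means of 216 ± 15.6 (SD, n = 3) and 297 ± 26.9 (SD, n = 5) and a change of 0.43 (SE 0.104, adjusted p = 0.0194). Fancm, the translocase that brings the core to DNA, went the other way.

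The signals of Fancm were 185, 192 and 142 in the telomerase arrays and 113, 134, 86.5, 119 and 117 in the ALT arrays. The gap between telomerase 3 and ALT 2 was small, and the means were 173 ± 26.7 (SD, n = 3) and 114 ± 17.2 (SD, n = 5), a log2 change of −0.54 (SE 0.147, adjusted p = 0.0307). Fancl, the ubiquitin ligase of the core, had signals of 284, 348 and 273 in the telomerase arrays and 372, 402, 356, 372 and 360 in the ALT arrays. All ALT arrays were higher, by 0.30, which did not pass the test (adjusted p = 0.0742). Fancb, Fancc, Fance and Fancg differed by 0.055, 0.36, −0.34 and 0.016, none past the test. The substrates of the core complex, Fancd2 and Fanci, did not pass it either, and neither had an unadjusted limma p under 0.05. Fancd2 had signals of 181, 197 and 146 in the telomerase arrays and 188, 208, 194, 173 and 129 in the ALT arrays, which overlapped almost fully, with a difference of 0.021 and an interval from −0.33 to 0.37. Fanci differed by 0.21.

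Of the 4 genes of fork remodelling and restart Pold3 fell. Pold3, a subunit of DNA polymerase delta needed for break-induced replication, had signals of 608, 656 and 540 in the telomerase arrays and 394, 504, 497, 396 and 382 in the ALT arrays. The groups did not overlap, and the means were 602 ± 58.1 (SD, n = 3) and 435 ± 60.6 (SD, n = 5), a log2 change of −0.46 (SE 0.124, adjusted p = 0.0306). Smarcal1, an annealing helicase, had signals of 286, 283 and 271 in the telomerase arrays and 226, 232, 218, 262 and 263 in the ALT arrays, all lower, by −0.21 (adjusted p = 0.176). Topbp1, an activator of the Atr kinase, had signals of 1675, 1878 and 1537 in the telomerase arrays and 1984, 1514, 1678, 1679 and 1732 in the ALT arrays, which overlapped (0.017, adjusted p = 0.932). The translocase Zranb3 differed by −0.23.

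In the Smc5/6 complex, a ring-shaped complex that supports recombination at telomeres, Smc5 was higher in ALT at the chosen probe set and lower at its other one, which is given with the probe sets below. At the chosen one its signals were 537, 674 and 550 in the telomerase arrays and 925, 825, 1537, 864 and 1007 in the ALT arrays. The groups lay apart there and ALT 3 stood above the other ALT arrays, with means of 587 ± 75.5 (SD, n = 3) and 1032 ± 291 (SD, n = 5) and a log2 change of 0.77 (SE 0.188, adjusted p = 0.0205). In the telomerase and parental arrays the other probe set was the brighter, so the highest mean over all arrays fell to this one through the ALT arrays. Smc6, its partner in the ring, had signals of 1219, 1314 and 1168 in the telomerase arrays and 1155, 931, 1038, 1059 and 1146 in the ALT arrays. The ALT arrays were all lower, by −0.21, which did not pass the test (adjusted p = 0.145). Nsmce2, the SUMO ligase of the complex, differed by −0.21.

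**Figure D3:**
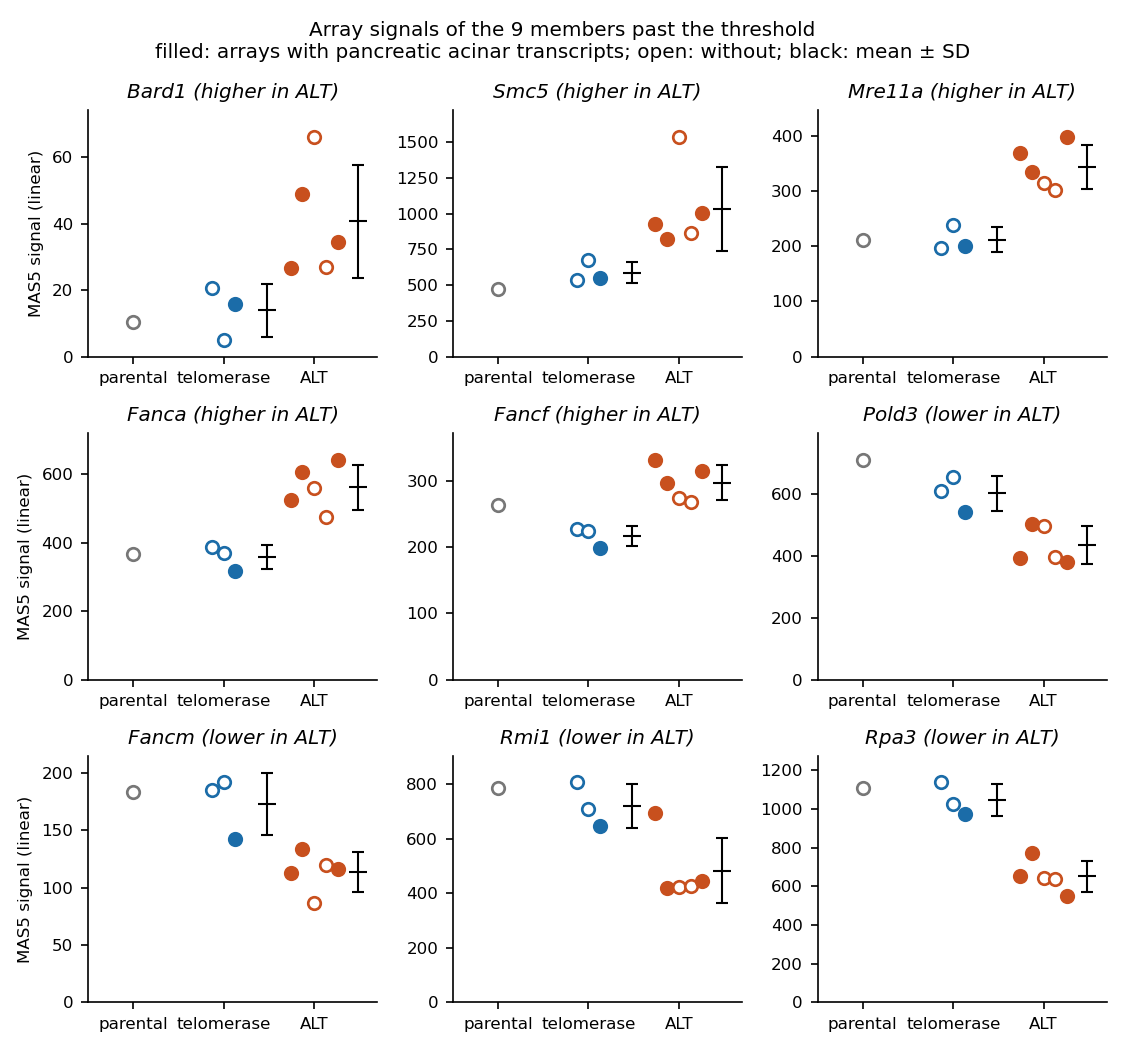
MAS5 signal on a linear scale (y axis, from 0) of the 9 genes that passed the test, in the parental, telomerase and ALT arrays (x axis), with 1 point per array, filled where acinar transcripts were present, and the mean ± SD in black. In 8 of the 9 panels the ALT and telomerase points do not overlap, and for Rmi1 ALT 1 lies among the telomerase points. The genes were chosen by the test on these same values, so the separation adds no support to the calls.

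The calls differed in how much they rested on single arrays. Mre11a, Rpa3 and Fanca passed the limma test with each of the 8 arrays left out in turn. Smc5 passed in 6 of 8 and failed without telomerase 1 (adjusted p = 0.0884) or telomerase 3 (0.0663). Fancf passed in 5 of 8 and failed without telomerase 1 (0.0557), 2 (0.0501) or 3 (0.0761), and Fancm passed in 5 and failed without telomerase 1 (0.125), telomerase 2 (0.12) or ALT 1 (0.0588). Pold3 passed in 3 and failed without telomerase 1 (0.107), telomerase 2 (0.119), ALT 1 (0.0646), ALT 4 (0.056) or ALT 5 (0.0511). Bard1 passed in 2, and its adjusted p reached 0.171 without telomerase 2. Rmi1 passed only without ALT 1, and its adjusted p reached 0.157 without telomerase 1. Over all 44 genes the number that rose and fell was 2 and 1 without telomerase 1, 5 and 1 without telomerase 2, 2 and 3 without telomerase 3, 5 and 2 without ALT 1 or ALT 4, and 4 and 2 without ALT 5. Without telomerase 2 the 5 that rose were Mre11a, Fanca and Smc5 with Rad51b and Fancl gained. The share of all tested genes that passed moved too, to 9.4% without telomerase 1, 11.9% without telomerase 2 and 13% without telomerase 3. With quantile normalisation 7 rose, Rad51b and Fancl gained, and 2 fell, and over all tested genes the share that rose went from 7.48% to 9.1% and the share that fell from 10.1% to 8.46%.

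Within the arrays without acinar transcripts (telomerase 1 and 2 against ALT 3 and 4) and within those with them (telomerase 3 against ALT 1, 2 and 5) all 9 genes kept the sign of their change. The log2 change without and with these transcripts was 0.48 and 0.82 for Mre11a, 0.43 and 0.86 for Fanca, and 0.25 and 0.62 for Fancf, so these were larger where the transcripts were present. It was −0.74 and −0.56 for Rpa3, −0.81 and −0.34 for Rmi1, −0.80 and −0.21 for Fancm, and −0.49 and −0.34 for Pold3, and these were larger where the transcripts were absent. For Smc5 it was 0.92 and 0.72, and for Bard1 1.09 and 0.70. Only Rpa3 and Rmi1 passed the limma test without the transcripts (adjusted p = 0.0204 for each). There 4.55% of the recombination and Fanconi genes passed, beside 6.73% of all tested genes. With the transcripts the lone telomerase array was assumed to vary like the ALT arrays, so only the sizes of the changes are given here. With the acinar score as a covariate over all 8 arrays Mre11a, Fanca, Fancf, Rpa3 and Smc5 passed (adjusted p = 0.0103, 0.0122, 0.0446, 0.0067 and 0.0146) and Bard1, Fancm, Pold3 and Rmi1 did not (0.0689, 0.0525, 0.0628 and 0.0541). With this covariate 13.6% of the recombination and Fanconi genes passed, beside 14.7% of all tested genes. In the comparison as reported these shares were 20.5% and 17.5%. Calls were thus lost over all tested genes too, both with the covariate and in the arrays without acinar transcripts. Whether the difference between the 2 sets of arrays exceeds the spread was not tested.

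For many of these genes the result depended on the probe set. The 44 genes had 104 probe sets, of which 93 were tested, and 8 of these rose and 9 fell, or 18.3%, beside 20.2% of all 22354 tested probe sets. Of the 27 genes with several tested probe sets 11 had changes of the same sign in all and 16 had changes of both signs. At Smc5 and Pold3 different probe sets passed the test in opposite directions. Besides the chosen probe set of Smc5, which rose, another fell, with signals of 947, 1021 and 802 in the telomerase arrays and 684, 521, 750, 644 and 427 in the ALT arrays. There every ALT array was lower, with means of 923 ± 111 (SD, n = 3) and 605 ± 130 (SD, n = 5) and a log2 change of −0.62 (adjusted p = 0.0308). Besides the one at which Pold3 fell, another rose, with signals of 175, 227 and 167 in the telomerase arrays and 335, 279, 264, 220 and 390 in the ALT arrays. Here ALT 4 lay within the telomerase range, the means were 190 ± 32.7 (SD, n = 3) and 298 ± 65.9 (SD, n = 5), and the change was 0.59 (adjusted p = 0.0386). The direction of Smc5 and Pold3 is therefore not settled by these arrays. Fancf and Fancm also had tested probe sets of the opposite sign to the chosen one, none past the test. These differed by −0.24 for Fancf and by 0.043 and 0.27 for Fancm.

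Smc6 showed its largest difference at a probe set other than the one chosen by mean signal. There the signals were 610, 663 and 489 in the telomerase arrays and 228, 205, 147, 227 and 239 in the ALT arrays, and 672 in the parental tumour. The groups were far apart, with means of 587 ± 89.4 (SD, n = 3) and 209 ± 36.8 (SD, n = 5) and a log2 change of −1.43 (adjusted p = 0.000287), the largest among the tested probe sets of the 44 genes. Another probe set of Smc6 fell by 0.39 (adjusted p = 0.0208), and another, with the opposite sign, differed by 0.22 (adjusted p = 0.252). Rad51ap1, Recql and Xrcc3 likewise passed only at a probe set that was not chosen, with changes of 0.51, −0.78 and −0.33. Rad51b passed in the fit of each probe set on its own (adjusted p = 0.045), unlike in that of 1 probe set per gene. Mre11a had a second tested probe set that differed by −0.039 (adjusted p = 0.845). All 5 tested probe sets of Rmi1 had negative changes. When all probe sets of a gene were averaged, those below the filter included, Mre11a still passed (0.31, adjusted p = 0.0443), whereas Fanca (0.35, adjusted p = 0.155), Fancm (−0.077), Pold3 (−0.063), Smc5 (0.075) and Rmi1 (−0.47, adjusted p = 0.0577) did not, and Fancf turned to −0.012 (adjusted p = 0.944). Rpa3 and Bard1 had a single probe set. With averaging 6 of the 44 genes passed (13.6%), beside 15.2% of all tested genes. Some of those that fell had not passed at the chosen probe set.

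**Figure D4:**
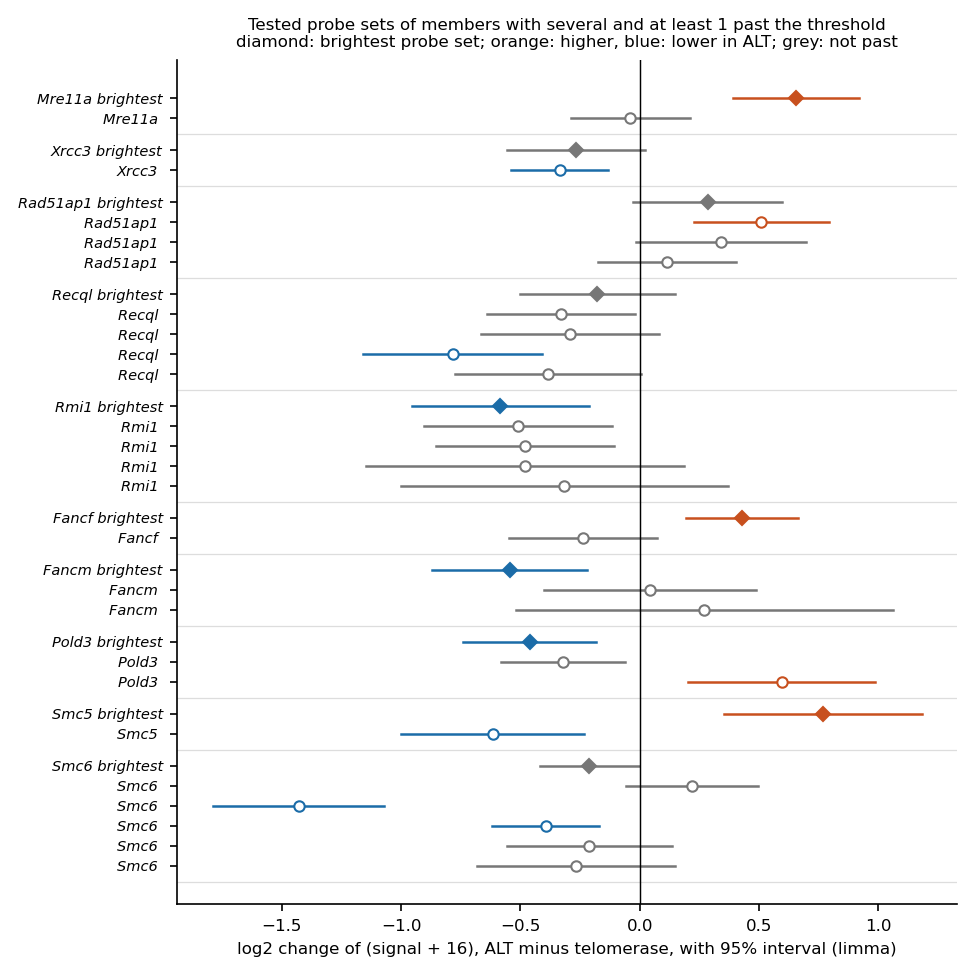
Log2 change of signal plus 16, ALT minus telomerase (x axis), of every tested probe set of the genes with several of them and at least 1 past the threshold (y axis), with points at the limma estimate and lines for its 95% interval. The diamond is the probe set with the highest mean, and at Smc5 and Pold3 orange (higher) and blue (lower) stand side by side.

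Some of the genes that fell lay among neighbours that fell too. Of the 20 tested genes around Rpa3 on chromosome 6, 10 on either side, 11 fell and 1 rose, with a median log2 change of −0.50, while 9.32% of all tested genes of chromosome 6 fell. Of the 20 around Rmi1 on chromosome 13, 8 fell and none rose, and 40.2% of the 443 tested genes of that chromosome fell. Around Fanca on chromosome 8, 3 rose and none fell, and 18.7% of the genes of that chromosome rose. Around Mre11a on chromosome 9, 3 rose and 1 fell, beside 6.28% and 7.13% of the genes of that chromosome. Around Pold3 on chromosome 7 and Smc5 on chromosome 19 none of the 20 passed in either direction. Around Fancm on chromosome 12, 1 rose and 4 fell, beside 5.9% and 14.5% of the genes of that chromosome. Near Bard1 on chromosome 1, 2 fell, and 13.9% of the genes of that chromosome fell. Near Fancf on chromosome 7, 2 rose, and 6.1% of the genes of that chromosome rose. DNA copy number was not measured.

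**Figure D5:**
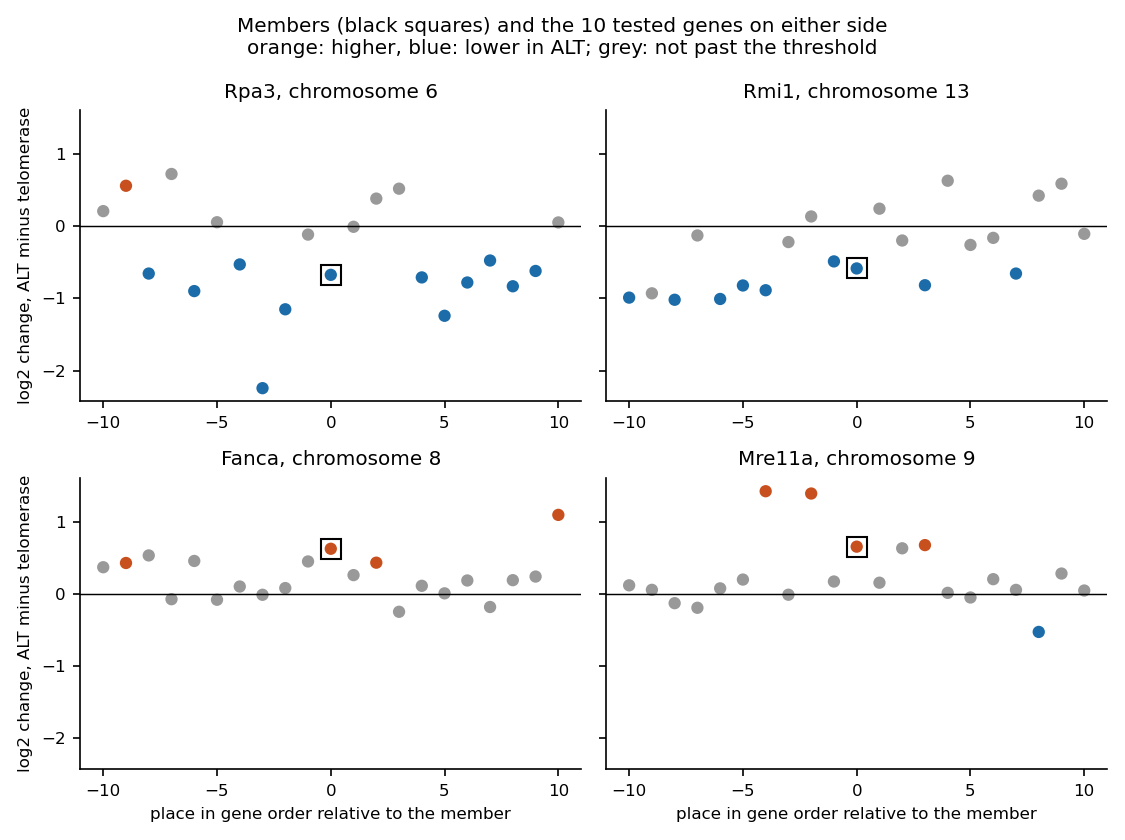
Log2 change, ALT minus telomerase (y axis), of Rpa3, Rmi1, Fanca and Mre11a (black squares) and of the 10 tested genes on either side, by place in gene order (x axis). Around Rpa3 11 of 20 neighbours are blue (lower) and around Rmi1 8 of 20, whereas around Fanca and Mre11a 3 of 20 are orange (higher).

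Of 57 other genes of the same pathways 55 were matched (the others were not analysed here) and 54 were tested, Dmc1 lying below the filter. Of the 54, 1 rose and 3 fell (7.41%), a lower share than the background of 17.5%, and all 4 were among the 27 other recombination genes. Sem1, a small acidic protein that binds Brca2 and is also a proteasome subunit, had signals of 4775, 4751 and 5330 in the telomerase arrays and 2743, 2524, 2730, 2798 and 2447 in the ALT arrays. The groups were far apart, with means of 4952 ± 327 (SD, n = 3) and 2648 ± 153 (SD, n = 5) and a log2 change of −0.90 (SE 0.0703, adjusted p = 6.63e-05). Uimc1, the ubiquitin reader of the Brca1-A complex, fell by 0.95 on the log2 scale, from 797 ± 73.0 (SD, n = 3) to 411 ± 87.4 (SD, n = 5) (adjusted p = 0.00363). Sfr1, which forms a complex with Swi5, rose by 0.71, from 775 ± 33.8 (SD, n = 3) to 1289 ± 221 (SD, n = 5) (adjusted p = 0.00549). Fbh1, a helicase that limits recombination, fell by 0.42, from 337 ± 7.60 (SD, n = 3) to 250 ± 38.5 (SD, n = 5) (adjusted p = 0.0404).

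Sem1, Uimc1 and Sfr1 passed with each array left out in turn, and Fbh1 passed only without ALT 4. The count was 2 and 2 without telomerase 2, 1 and 4 without ALT 3, and 3 and 3 without ALT 4 or ALT 5. Of all tested genes 11.9% passed without telomerase 2, 15.8% without ALT 3, 17% without ALT 4 and 16.9% without ALT 5. Sem1 lies on chromosome 6, where 9 of its 20 neighbours fell and 1 rose, beside 9.32% of the chromosome's genes that fell. It is 6 places from Rpa3 in gene order, and 13 neighbours are common to both, so the windows are not separate observations. Uimc1 lies on chromosome 13, where 13 of its 20 neighbours fell and none rose (median −0.73), beside 40.2% of that chromosome's genes that fell. None of the 15 other Fanconi genes, which include Ube2t and Usp1, passed the limma test (3 at an unadjusted p under 0.05). None of the 12 other fork and Smc5/6 genes passed it (2 at an unadjusted p under 0.05). These unadjusted counts stand beside 3885 of all 12369 tested genes.

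The parental tumour, a single array with no test, lay on the telomerase side of the 9 genes that moved. Its signal was outside the ALT range in the telomerase direction for all 9 and nearer to the telomerase mean for 8, all but Fancf. Among the 2170 tested genes that passed, the same held for 94.6% and 93.4%. It was 211 for Mre11a, 1108 for Rpa3, 10.4 for Bard1, 785 for Rmi1, 366 for Fanca, 263 for Fancf, 183 for Fancm, 711 for Pold3 and 473 for Smc5. For Smc5 it lay below both groups and for Pold3 above both. Over the 44 genes it lay within the telomerase range for 20, above it for 21 and below it for 3. It was the highest of all 9 arrays for 14 of the 44 genes (31.8%), against 12.6% of all tested genes, and its summed signal of 21992 was above that of every other array. The proliferation genes also had their highest sum there, 50188.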

How the data were processed

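Total RNA of 9 tumours was hybridised to mouse 3′ expression arrays after biotin labelling. The deposited intensities, 1 linear value for each of 45101 probe sets and array, were made by the authors with MAS5, as the submitters' processing notes state. Its version, settings and scaling are not given in the labels used here. Array medians lay between 39.8 and 43.8, and no further normalisation was applied. Upper quartiles were 193.7 to 201.1 in the ALT arrays, 204.5 to 210.4 in the telomerase arrays and 207.9 in the parental array. This difference was left in, and quantile normalisation was run as an alternative. There are no detection calls, and the number of arrays limits the precision.

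Of the probe sets 34958 named a single gene, 932 several and 9211 none, by the platform annotation, and 0 symbols needed updating. Each gene was read by its brightest probe set on average, and genes below the 40% quantile of mean signal (25.3) were left out. Log2 of the signal plus 16 was compared between 5 ALT and 3 telomerase arrays with limma 3.58.1 in R 4.3.3 (moderated with an intensity trend, two-sided, Benjamini-Hochberg adjustment over 12369 genes, threshold 0.05). Every adjusted p is from limma, and a log2 change on this scale understates the change of low genes. The parental array was kept out of the fit. Python 3.11.15 and matplotlib 3.10.9 were used for joins and plots. The fit was also run on simulated arrays of 12369 genes. There it recovered 34.3% of 99 genes changed by 0.5 on the log2 scale and 77.7% of 94 changed by 1. A gene that did not pass may therefore still have changed.

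The members, lists, roles and motifs were chosen with earlier results of these data known. Every array value is given for members past the threshold, members whose groups did not overlap and the member of highest mean signal in each role, and other pathway genes past the threshold are named; genes named for other probe sets, and the 3 promoters printed, were chosen after their values were seen. The acinar arrays were split at the midpoint of the acinar score over the 8 passaged arrays. Alternatives changed the filter (none, 60%), pseudocount (1, 64), normalisation, probe set summary, use of the parental array, replicate block, variance model, acinar transcripts, threshold (0.1) and arrays left out. Same-numbered ALT and telomerase arrays always differed in acinar transcripts, so whether they were paired could not be checked.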

Additional observations from a re-analysis of the deposited data

Results flagged for a closer look

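Within the 5 ALT arrays 3 of the 44 genes had 1 array far from the others by Dixon's test, which chance alone gives in about 1 group in 20. For Rmi1 it was ALT 1, at 696 where the next was 447. For Smc5 it was ALT 3, at 1537 where the next was 1007. For Rad51ap1 it was ALT 1, at 1463 where the next was 1144. All 3 were the highest ALT signal, and Dixon's test was run on linear signals, not on the log2 scale. With 44 genes checked, a count of 3 is near the rate that chance gives. The share over all tested genes was not taken. The cause was not tested.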

How the results depend on the processing

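The members that rose and fell were 5 and 4 in the comparison as reported. Leaving out 1 array at a time gave 2 to 5 that rose and 1 to 3 that fell. The share of all tested genes that passed moved as well, from 17.5% to between 9.4% and 17.0% with an array left out, 8.01% with the replicate block, and 6.73% without and 2.72% with acinar transcripts. Averaging all probe sets of a gene gave 6 members past the test (13.6%, beside 15.2% of all tested genes). Of these 2 rose, and Fancf turned to −0.012. Of the 4 that fell as reported only Rpa3 was kept, so the other genes that fell with averaging were gained. Quantile normalisation gave 2 that fell. Adding the parental array to the telomerase group gave 7 that fell, and the acinar covariate 1. Over all tested genes the share that fell went from 10.1% to 14.3% with the parental array added and 8.21% with the covariate. Counts at an unadjusted p under 0.05 are given below without the share over all genes or probe sets in the same fit. They therefore have no background beside them. In the comparison as reported 3885 of 12369 genes had such a p, but that fit used all 8 arrays. Without acinar transcripts 0 rose and 2 fell, with an unadjusted limma p under 0.05 at 11 members, and with them 0 rose and 0 fell, with 9 such members. Whether same-numbered arrays were paired cannot be told, as the arrays of each such pair differed in acinar transcripts. Their deviations correlated at −0.302, −0.402 and −0.572, and those of ALT and telomerase arrays alike in acinar transcripts at 0.325 to 0.452. With the replicate block 2 rose and 1 fell, and fewer residual degrees of freedom were left there.

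Of the other pathway genes 1 rose and 3 fell as reported, and 1 to 3 rose and 2 to 4 fell with an array left out. The share of all tested genes that rose went from 7.48% to 10.5% with the parental array added and 11% at an adjusted p of 0.1. The number that rose was 3 with the filter at 60%, 2 with quantile normalisation, median centring, robust moderation or the acinar covariate, 4 with the parental array added, 4 at an adjusted p of 0.1, and 0 with acinar transcripts, where 8 had an unadjusted limma p under 0.05. The number that fell was 5 with averaged probe sets, 6 with the parental array added, 6 at 0.1, and 1 without and 1 with acinar transcripts; with the replicate block 2 rose.

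Of the members' probe sets 8 rose and 9 fell as reported, and 3 to 9 rose and 2 to 9 fell with an array left out. With the replicate block 3 rose and 4 fell. Without acinar transcripts 0 rose, with 27 at an unadjusted limma p under 0.05, and with them 0 rose and 1 fell, with 14. With the parental array added 18 fell, and 14 at 0.1. In these settings 14.3% and 14.1% of all tested genes fell in the fit of 1 probe set per gene. The share over all probe sets was not taken there, so these counts have no like background. The unadjusted counts of probe sets have no share over all probe sets beside them. Averaging gives no value here. The causes were not tested. The absence of detection calls limits low signals such as that of Bard1.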
